A study of Danio rerio with 8 samples.

Results

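The rod opsin genes *rho* and *rhol* and the exo-rhodopsin gene *exorh* were examined, 3 of the 20409 genes in the deposited matrix. They were picked by gene symbol, and each symbol belonged to a single gene of the matrix. RNA came from whole zebrafish larvae at 4 days post-fertilization (dpf) in 8 libraries, 4 of *elipsa* mutants and 4 of controls, each from a tube of circa 30 untreated larvae. The mutants were homozygous for the *tp49d* allele of *traf3ip1*, which encodes a component of intraflagellar transport, and were selected by their curled-down tail. The controls were an unseparated mixture of wild-type and heterozygous siblings from crosses of heterozygous parents. From each of 4 clutches came a control tube and a mutant tube that were processed together, so the clutch is also the RNA preparation batch. Each replicate is thus a pool of larvae, and a rod or pineal gene was measured in RNA of the entire body.

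Rhodopsin is the light-sensing receptor of rods. It couples an opsin protein to a vitamin A derivative and, once struck by light, activates the G protein transducin. Opsins are made in the cell body and carried through the connecting cilium into the outer segment, a modified cilium packed with membrane discs. *rho* encodes the main rod opsin of zebrafish, and *rhol* encodes a second rhodopsin of the same type. *exorh* encodes exo-rhodopsin, a close relative of rod opsin that teleosts use in photoreceptors of the pineal organ and not in the retina.

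Values are the authors' normalized log2 values as deposited, given in units of CPM (counts scaled to a common library total). Once sorted, they were nearly identical between libraries. CPM values here, linear ones included, are thus normalized levels and not counts scaled to a total alone. Differences are mutant minus control on that log2 scale, tested with limma over all genes with Benjamini-Hochberg adjustment. Calls required an adjusted p below 0.1, which is the cutoff of the study. The study reported more genes in each direction at that cutoff, so the calls here are not its own. At this threshold 1.16% of all genes were called lower in the mutants and 0.363% higher. *traf3ip1* itself had log2 values of 2.63 to 3.03 in controls and 1.61 to 2.36 in mutants, which is a difference of -0.83 (limma, adjusted p = 0.0751, standard error 0.18). Leaving out control 2, 3 or 4 or mutant 2, 3 or 4 ended this call, the highest adjusted p being 0.217. Control 1 had the lowest values of *rho*, *rhol* and several other photoreceptor genes among the controls, so values are given by clutch.

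All 3 opsin genes were lower in *elipsa* mutants, and each was lower in the mutant of every clutch, as were 14.4% of all genes. All 3 were called, beside 1.16% of all genes, and all 3 were called with clutch as a block, beside 7.86% of all genes. In all 3, the lowest control lay above the highest mutant, a separation found in 3.34% of all genes. The falls were large in the rod opsins *rho* and *rhol*, and smaller in the pineal *exorh*. Since the RNA is of whole larvae, fewer photoreceptors and less opsin RNA per photoreceptor cannot be told apart.

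*rho* had log2 values of 10.51, 11.63, 11.42 and 11.69 in controls 1 to 4. In mutants 1 to 4 it had 8.26, 8.65, 8.72 and 8.75. Control 1 was the lowest control and mutant 1 the lowest mutant, and the gap between the groups was 1.76. On the linear scale this was 2669 ± 845 CPM (SD, n = 4) in controls and 390.03 ± 56.3 CPM (SD, n = 4) in mutants. The difference was -2.72 (limma, adjusted p = 0.00105, standard error 0.24), which is a fall of 6.58-fold. It was -2.24 in clutch 1, -2.98 in clutch 2, -2.70 in clutch 3 and -2.95 in clutch 4, so the clutch with the lowest control had the smallest fall. Without control 1 the difference was -2.99.

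*rhol* had log2 values of 1.98, 3.09, 3.03 and 3.22 in controls 1 to 4. In mutants 1 to 4 it had -0.54, 0.31, -0.67 and 0.20. Control 1 was again the lowest control, but among the mutants libraries 1 and 3 were low and libraries 2 and 4 high. The difference was -3.00 (limma, adjusted p = 0.00286, standard error 0.33), which is a fall of 8.03-fold. In clutches 1 to 4 it was -2.52, -2.78, -3.70 and -3.02. In the mutants *rhol* was close to 1 CPM, between 0.628 and 1.24 CPM, where the log2 scale spreads small differences. With a pseudocount of 1 the difference was -2.10, and it was still called.

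*exorh* had log2 values of 2.78, 2.15, 2.10 and 2.83 in controls 1 to 4. In mutants 1 to 4 it had 1.68, 1.16, 1.42 and 1.45. Controls 1 and 4 were high and controls 2 and 3 low, and mutant 1 was the highest mutant, so the order of the libraries was not that of *rho*. On the linear scale *exorh* had 5.68 ± 1.52 CPM (SD, n = 4) in controls and 2.71 ± 0.40 CPM (SD, n = 4) in mutants. The difference was -1.04 (limma, adjusted p = 0.061, standard error 0.21), which is a fall of 2.06-fold. In clutches 1 to 4 it was -1.10, -1.00, -0.68 and -1.38. The groups were separated by a gap of 0.42.

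The call of *exorh* depended on single libraries when the clutch was not in the fit. It was lost without control 4 or without mutant 2, 3 or 4, with differences of -0.92, -0.95, -1.04 and -1.05 and adjusted p-values of 0.156, 0.174, 0.171 and 0.153. Leaving out clutch 2, 3 or 4 ended it too, the highest adjusted p being 0.328. In the fit with a clutch block, the adjusted p of *exorh* was 0.00404, and leaving out each clutch from that fit gave adjusted p-values between 0.00897 and 0.0262. The calls of *rho* and *rhol* held in each of 24 alternatives tried for each gene.

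**Figure D1:**
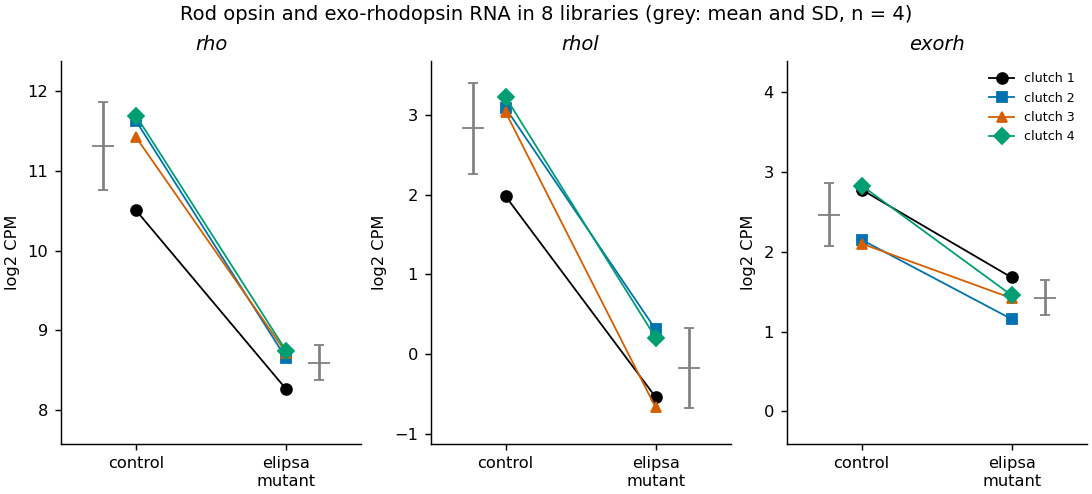
Log2 CPM of *rho*, *rhol* and *exorh* in control and *elipsa* mutant libraries, with a line joining the libraries of a clutch, symbols for the clutch, and grey bars for the mean and SD of 4 libraries. The 3 vertical axes span the same number of log2 units. All lines fall, with differences of -3.70 to -2.24 for *rho* and *rhol* and of -1.38 to -0.68 for *exorh*, and clutch 1 is lowest among the controls for *rho* and *rhol* but not for *exorh*.

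Whether the genes differed in their fall was tested on the log2 difference between 2 genes within each library, in which gene length cancels when mutants are set against controls. The size of such a difference is not corrected for length and is not read as a ratio of transcripts. The 3 pairs were compared by exact two-sided permutation tests, in which 4 libraries against 4 cannot give a p below 0.0286, with Benjamini-Hochberg adjustment over the 3 pairs.

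*rho* fell more than *exorh*. The log2 value of *rho* minus that of *exorh* was 7.73, 9.48, 9.32 and 8.86 in controls 1 to 4, and 6.59, 7.49, 7.30 and 7.29 in mutants 1 to 4. All mutants lay below all controls. The difference of the differences was -1.68 (exact permutation p = 0.0286, adjusted p = 0.0429), and within the clutches it ran from -2.02 to -1.14. *rhol* fell more than *exorh* as well. The log2 value of *rhol* minus that of *exorh* was -0.80, 0.93, 0.93 and 0.39 in controls 1 to 4, and -2.22, -0.85, -2.09 and -1.25 in mutants 1 to 4. These groups did not overlap either, although control 1 at -0.80 lay close to mutant 2 at -0.85. The difference of the differences was -1.97 (exact permutation p = 0.0286, adjusted p = 0.0429), and it was negative in 4 of 4 clutches. With a pseudocount of 1 it was -1.27 (exact permutation p = 0.0571, adjusted p = 0.0571). When the libraries were paired by clutch, an exact sign-flip test gave p = 0.125 for *rho* and for *rhol* against *exorh*, the smallest p that 4 clutches allow, so neither difference could be called in that way.

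Between the rod opsins no difference in the fall was found on the deposited log2 values. The log2 value of *rho* minus that of *rhol* was 8.53, 8.54, 8.39 and 8.47 in controls 1 to 4. It was 8.80, 8.34, 9.39 and 8.54 in mutants 1 to 4, so the groups overlapped, with mutant 3 highest. The difference of the differences was 0.29 (exact permutation p = 0.314, adjusted p = 0.314), with values from -0.20 to 1.00 within the clutches. With a pseudocount of 1, which reduces the change of the lower gene, its sign turned to -0.62 (exact permutation p = 0.0286, adjusted p = 0.0429). The outcome for this pair thus depended on the scale.

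In controls *rho* and *rhol* kept nearly the same distance in every library, 8.48 ± 0.07 (SD, n = 4), although *rho* alone had an SD of 0.55 and *rhol* one of 0.57. *rho* minus *exorh* had an SD of 0.79 in the same libraries. In mutants, where *rhol* was near 1 CPM, *rho* minus *rhol* had an SD of 0.46. The rod opsins encode related proteins, and the authors' counting shares reads that match more than 1 transcript, so reads of the abundant *rho* could have been counted under *rhol*. Their part in the values of *rhol* was not tested.

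**Figure D2:**
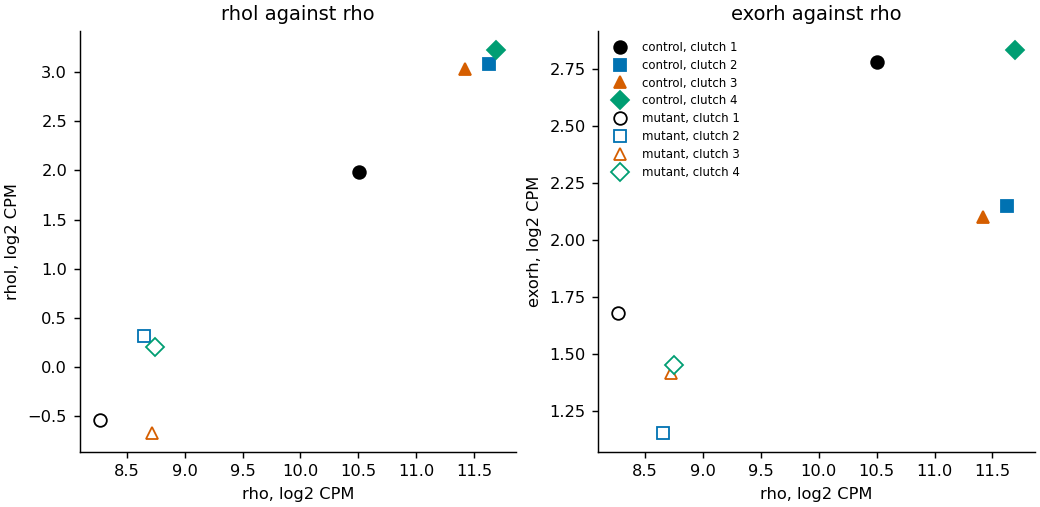
Log2 CPM of *rhol* (left) and *exorh* (right) against that of *rho* in each library, with filled symbols for controls, open symbols for mutants and a symbol for each clutch. The 4 controls lie on a line for *rhol*, with *rho* minus *rhol* between 8.39 and 8.54, while for *exorh* control 1 (2.78) is nearly as high as control 4 (2.83) despite the lowest *rho* among the controls.

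*rho* and *exorh* lie on the same chromosome in the RefSeq annotation, with 2 protein-coding genes between them, while *rhol* lies on another chromosome. That annotation is of a later genome build than the files, so gene order only is given. The genes between are *ift122*, which encodes a subunit of the intraflagellar transport complex IFT-A, and *magi1a*, which encodes a scaffold protein of cell junctions. *ift122* differed by 0.09 (limma, adjusted p = 0.909, standard error 0.22), with 0.93 to 1.82 in controls and 1.18 to 1.78 in mutants. *magi1a* differed by -0.12 (adjusted p = 0.519, standard error 0.06). Neither gene between the opsins was called, beside 1.16% of all genes called lower and 0.363% higher. For 2 genes this does not set them apart from all genes.

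Most listed genes that work with rod opsin fell with it, as did 4 of 5 matched cone opsin genes, so the fall was not confined to rod genes. Of 27 listed genes of rod phototransduction and outer segment discs, 25 were matched, and 21 of these were lower and none higher (none also at an unadjusted p under 0.05), a share of 84.0% beside 1.16% of all genes. The list was chosen with earlier results of these data known, so this share is a description and not independent support. The median log2 difference of the 25 was -1.89, beside 0.03 over all genes. *gnat1*, which encodes the transducin alpha subunit that rhodopsin activates, had 5.59, 6.58, 6.48 and 6.83 in controls 1 to 4 and 3.24, 3.30, 3.23 and 3.70 in mutants 1 to 4. It differed by -3.00 (limma, adjusted p = 0.000616, standard error 0.24). Control 1 was low for *gnat1* too. *gngt1*, which encodes the transducin gamma subunit of rods, differed by -2.83. The rhodopsin kinase genes *grk1a* and *grk1b*, whose products phosphorylate light-activated opsin, differed by -2.51 and -2.97. The arrestin genes *saga* and *sagb*, whose products bind phosphorylated rhodopsin and end its signal, differed by -1.69 and -1.89. *pde6a*, which encodes a catalytic subunit of the rod phosphodiesterase, differed by -2.45 (adjusted p = 0.000468, standard error 0.18), and *rom1a*, which encodes a disc rim protein, by -2.01 (adjusted p = 0.000839, standard error 0.17).
The difference of *rho* was thus beyond the median of its partners, and that of *exorh* was nearer to 0. The 4 partners that were not called were *gnb1a*, *gnb1b*, *guca1a* and *rcvrnb*. *gnb1a* and *gnb1b* encode transducin beta subunits that many other cells also use, and they differed by -0.14 and -0.11. Within the clutches *guca1a* differed by -1.42 to 0.44 and *rcvrnb* by -0.57 to -0.32. Without clutch 2, 13 of the 25 were called lower, while the lower calls over all genes went from 237 to 79.

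The other opsins behaved in different ways. Of 8 listed cone opsin genes 5 were matched, of which 4 were lower, beside 1.16% of all genes, and none higher. Among all listed opsin genes other than *rho*, *rhol* and *exorh*, 4 were called lower, against 2 without clutch 2 and 1 without clutch 3. Over all genes the lower calls also went from 237 to 79 without clutch 2 and to 72 without clutch 3. *opn1sw1*, the ultraviolet cone opsin gene, had 9.90 to 11.27 in controls and 7.69 to 8.18 in mutants, a difference of -2.82 (limma, adjusted p = 0.00107, standard error 0.26). *opn1lw2* (red), *opn1mw1* (green) and *opn1sw2* (blue) differed by -1.97, -1.95 and -1.83. The smallest fall of these 4 cone opsins was in clutch 1, as for *rho* and *rhol*. *opn1mw2*, a second green cone opsin gene next to *opn1mw1* whose reads may be mixed with those of its neighbour, differed by 1.11 (adjusted p = 0.295), and the clutch block called it higher (adjusted p = 0.000433). Of 31 listed opsin genes outside rods and cones, 17 were matched, with a median difference of -0.15. None was called by limma in either direction, beside 1.16% of all genes lower and 0.363% higher. With 17 genes, this lack of calls does not set the list apart from all genes. At an unadjusted p under 0.05, 3 of the 17 were lower, beside 6.11% of all genes. The clutch block called 2 of the 17 lower, beside 7.86% of all genes. These were *rgra*, which encodes a retinal G protein-coupled receptor of the visual cycle, with -0.88, and *opn4.1*, a melanopsin gene, with -0.61. The difference of *exorh*, at -1.04, was larger in size than that of each of the 17, with no test between them.

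Pineal genes were measured next to *exorh*. Of 10 listed genes 6 were matched. Limma called none in either direction, beside 1.16% of all genes lower and 0.363% higher. With 6 genes, this lack of calls does not set the list apart from all genes. At an unadjusted p under 0.05, 2 of the 6 were lower and 1 was higher, beside 6.11% and 5.84% of all genes. The median difference of the 6 was -0.10, beside -1.04 for *exorh*. Among the 6, *otx5* and *crx* are also on the list of photoreceptor transcription factors, so this median is not one of pineal-specific genes. The listed pineal opsin genes *parapinopsina*, *parapinopsinb* and *parietopsin* were not matched, so no other pineal opsin was among the 6. *aanat2*, which encodes the pineal enzyme that sets the rhythm of melatonin synthesis, had 0.71, 1.09, 0.39 and 2.84 in controls 1 to 4 and 2.19, 2.54, 2.37 and 2.90 in mutants 1 to 4. Control 4 stood within the range of the mutants, and the difference was 1.24 (adjusted p = 0.332, standard error 0.46), with an adjusted p of 0.0274 as a higher gene with clutch as a block. *asmt*, which encodes the last enzyme of melatonin synthesis, had 1.53 to 2.15 in controls and 1.07 to 1.64 in mutants, a difference of -0.49 (adjusted p = 0.335). *asmt2* differed by -0.04 and *bsx*, a homeobox gene of the pineal and hypothalamus, by -0.16. *otx5*, a homeobox gene of pineal and retinal photoreceptors, had a difference of -0.29 (adjusted p = 0.309), and it was called lower with the block (adjusted p = 0.0309). *crx*, the homeobox gene of photoreceptor precursors, differed by 0.05. No test set *exorh* against these genes.

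**Figure D3:**
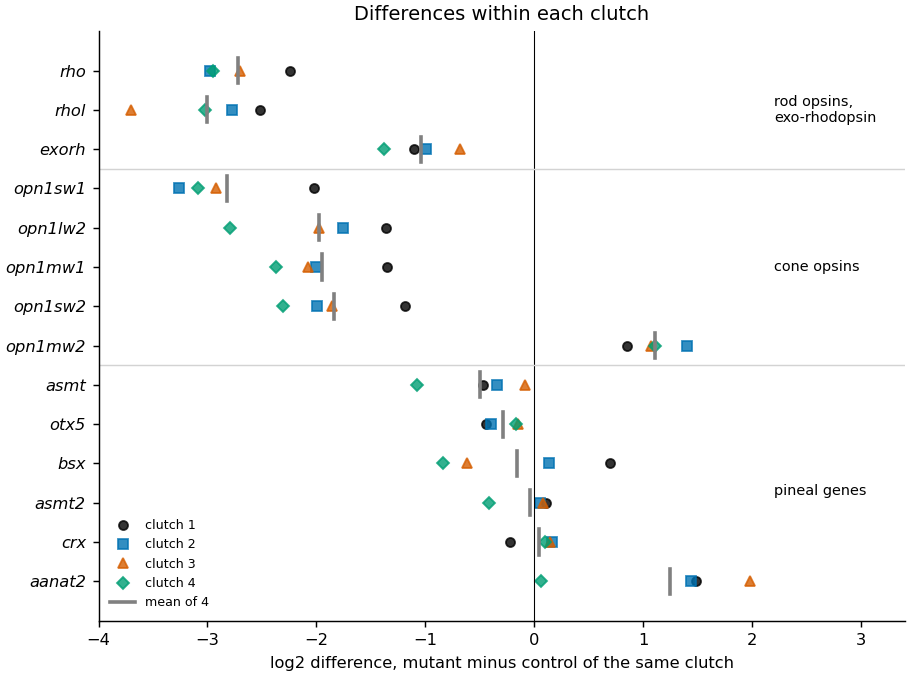
Log2 difference of mutant minus control within each clutch (symbols) and its mean over 4 clutches (grey bar) for the 3 opsin genes, 5 cone opsin genes and 6 pineal genes. *rho*, *rhol* and 4 cone opsins lie at -3.70 to -1.19 in every clutch and *exorh* at -1.38 to -0.68, while *opn1mw2* lies at 0.85 to 1.40 and *aanat2* at 0.06 to 1.98.

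Genes of other retinal cells and of the lens had a median difference near 0. Of 24 listed genes for bipolar, amacrine, horizontal and ganglion cells, Muller glia, pigment epithelium and lens, all were matched. Limma called none in either direction, beside 1.16% of all genes lower and 0.363% higher. At an unadjusted p under 0.05, 1 was lower and none higher, beside 6.11% and 5.84% of all genes. The lack of calls thus does not set this list apart from all genes. Their median difference was 0.10, and their summed level was 1737 to 2151 CPM in controls and 1959 to 2203 CPM in mutants. The sum weighs abundant genes most, such as the lens gene *cryba4* with a mean of 541 CPM in controls. The clutch block called 2 lower and 3 higher, beside 7.86% and 6.48% of all genes. *rpe65a*, which encodes the isomerase of the pigment epithelium that regenerates the chromophore of rhodopsin, had the lowest difference of the 24 at -0.73 (adjusted p = 0.439), and was called lower with the block (adjusted p = 0.0134). Several of these genes are also expressed outside the eye.

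The genes nearest in profile to each opsin gene were found by the root-mean-square (RMS) difference over the 8 libraries, after each gene was centred on its own mean, among 15134 other genes with a proper symbol and a mean log2 value of at least 1. This is a description, since the libraries of a group share their genotype. Nearest to *rho* were *opn1sw1* (RMS difference 0.17), *gnat1* (0.21), *gnat2* (0.23), *pde6a* (0.25) and *grk1a* (0.27). *rhol* stood at 0.32 from *rho*, and *exorh* at 1.00. Nearest to *rhol* were *gnat1* (RMS difference 0.25), *camk1ga* (0.36), *opn1sw1* (0.37), *gngt1* (0.39) and *grk1b* (0.42). *gnat2* encodes the transducin alpha subunit of cones, and *camk1ga* a calcium-dependent protein kinase.
The list for *exorh* shared no gene with the others. This was fixed beforehand, since *exorh* stood 1.00 from *rho* and 1.17 from *rhol*, far beyond the distances of the 5 nearest genes. The step between the groups, smaller in *exorh*, is part of this RMS difference. Nearest to *exorh* were *snx19a* (RMS difference 0.19), *elovl4b* (0.21), *hhip* (0.22), *gli1* (0.24) and *olfml2ba* (0.25). *snx19a* encodes a sorting nexin and *elovl4b* an elongase of very long fatty acids. *hhip* and *gli1* encode an inhibitor and a transcription factor of the hedgehog pathway, and *olfml2ba* encodes an olfactomedin-like protein. *hhip* had 6.07 to 6.26 in controls and 4.91 to 5.32 in mutants, a difference of -1.02 (limma, adjusted p = 0.00148, standard error 0.10). The differences of *snx19a*, *elovl4b*, *gli1* and *olfml2ba* were -0.87, -0.85, -0.81 and -0.75, of which that of *elovl4b* was not called (adjusted p = 0.112). All 5 were lower in the mutants of all 4 clutches, as were 14.4% of all genes. Their choice by closeness to *exorh*, itself lower in each clutch, made this likely beforehand.

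**Figure D4:**
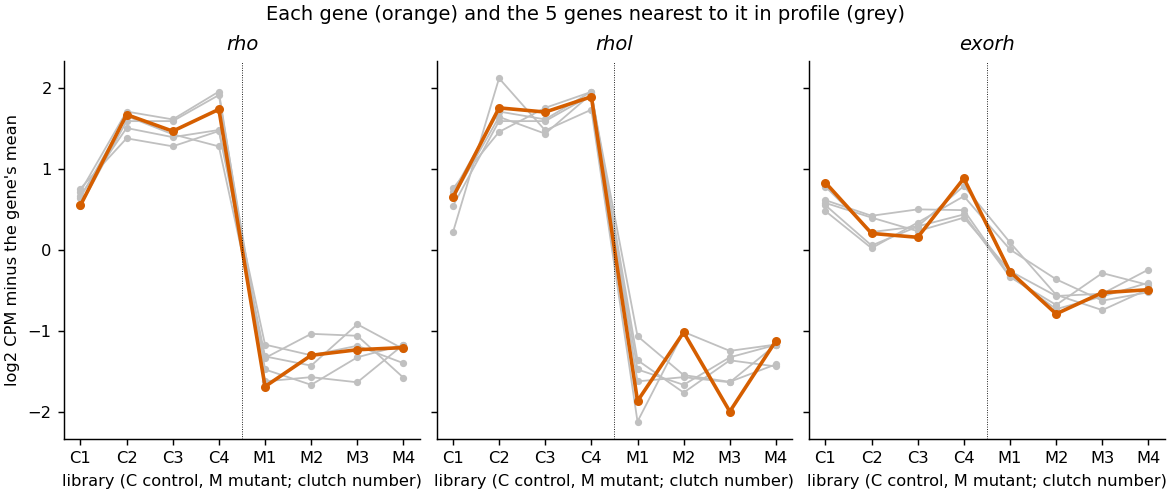
Log2 CPM minus the mean of the gene over 8 libraries for *rho*, *rhol* and *exorh* (orange) and for the 5 genes nearest to each in profile (grey), with controls (C) left and mutants (M) right of the dotted line and clutches numbered 1 to 4. *rho*, *rhol* and their nearest genes share a low control 1, while *exorh* is high in controls 1 and 4 and has a smaller step of -1.04 between the groups.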

How the data were processed

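RNA was measured in 8 libraries of pooled whole larvae. Per the methods, reads were filtered and then aligned by HISAT2 and Bowtie2, and RSEM estimated gene counts. The authors retained genes averaging over 1 CPM and took log2 values with voom. The labels name the build GRCz11. The deposited log2 values were nearly identical between libraries once sorted (lowest -5.02, highest 14.04 over all libraries), as quantile normalization leaves them. Their median spread between libraries was 0.0046. Equal values also recurred across libraries, such as 10.9494 for *opn1sw1* in controls 2 and 3. Another was 9.0198, for *gnat2* in control 3 and *glula* in mutant 4. Quantile normalization is not stated in the methods. The linear sums of 997999 to 998008 give no depth. Depth per library is thus unknown and no counting interval is given. Gene symbols came from the deposited comparison table. Its columns of the authors' own fold changes and p-values were not used.

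The comparison of mutants and controls used limma 3.58.1 (R 4.3.3, mean-variance trend, two-sided, Benjamini-Hochberg over 20409 genes), with no clutch term, since the methods name none. Standard errors are moderated. The fit was tested on simulated data. The labels give each library its clutch, and deviations from the group means correlated within clutches 1 to 4 at 0.64, 0.325, 0.334 and 0.458, so clutch was used as a block in an alternative. Pairs of genes were compared by exact permutation (scipy 1.17.1, Python 3.11.15). Figures used matplotlib 3.10.9.

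The members and gene lists were chosen with earlier results of these data known. Of 133 list entries, 109 were matched by deposited symbol and 1 through RefSeq, and 23 were not analysed here. Named genes were the 3 opsin genes, *traf3ip1*, called list members by smallest p (up to 4 a list, and up to 2 of the opposite direction), all matched cone opsin and pineal genes, and the 5 nearest profiles of each opsin gene. *gngt1*, *grk1a*, *grk1b*, *saga* and *sagb* were added for their roles, *ift122* and *magi1a* for their position, and uncalled or block-called genes that are singled out after their values were seen. Alternatives were a filter on mean log2 values under 1, a pseudocount of 1, no trend, robust moderation, library weights, re-centring on housekeeping genes, the clutch block, each library or clutch left out, an adjusted p under 0.05, and, added after seeing the data, the block with each clutch left out.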

Additional observations from a re-analysis of the deposited data

Results flagged for a closer look

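*rhol* in control 1, at a log2 value of 1.98, stood apart from the other controls at 3.03 to 3.22. Its gap to the nearest of them was 0.848 of the range of the group, above Dixon's critical value for 4 samples. Chance gives such a gap in about 1 in 20 groups, and 8 groups were examined. In the same library *rho* was also the lowest of the controls, and its gap did not pass the critical value. Without control 1 the difference of *rhol* was -3.29 (adjusted p = 0.000452 from limma).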

How the results depend on the processing

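The differences of *rho* (-2.99 to -2.59) and *rhol* (-3.29 to -2.10) kept their direction and call in all 24 alternatives tried for each, and that of *exorh* kept its direction in 24 and its call in 16. Leaving out a library or a clutch gave -1.16 to -0.92 for *exorh*, -0.95 to -0.70 for *traf3ip1*, 72 to 836 lower and 8 to 285 higher genes, 13 to 21 lower rod partner genes, 1 to 5 lower and 0 to 1 higher other opsin genes, and 0 to 1 lower genes of other retinal cells. At an adjusted p under 0.05, *exorh* (-1.04) and *traf3ip1* (-0.83) were not called, and 36 genes were higher. The clutch block raised the count from 237 lower and 74 higher genes to 1605 lower and 1322 higher. With this block 1 pineal gene was lower and 1 higher, and 6 other opsin genes were lower and 1 higher. Of the genes of other retinal cells, 2 were lower and 3 higher. The block changed the call of none of *rho*, *rhol*, *exorh* and *traf3ip1*. With library weights 478 genes were lower and 204 higher, and re-centred on housekeeping genes 36 were higher. The cause of these shifts was not tested. With a pseudocount of 1, *rho* minus *rhol* turned from 0.29 to -0.62 (exact permutation, adjusted p = 0.0429). Adding 1 CPM shrinks the change of a gene near 1 CPM. As a paired test, an exact sign-flip over 4 clutches cannot give a p below 0.125, so under this pairing *rho* minus *exorh* (-1.68) and *rhol* minus *exorh* (-1.97) could not be called. Leaving out a library left an exact permutation with an adjusted p of 0.0857 for both, from a p of 0.0571. That is the smallest p the remaining libraries allow, so its rise reflects their number. Depth is unknown, so how firmly values near 1 CPM were measured, those of *rhol* in mutants among them, cannot be given.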

Other observations

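Transcription factors of photoreceptors were measured alongside their opsin genes. Of 17 listed genes, all were matched, and their median log2 difference was -0.17. An unadjusted p under 0.05 was found for 4 lower genes and no higher one, beside 6.11% and 5.84% of all genes. After adjustment 1 was called lower and none higher, beside 1.16% and 0.363% of all genes. This was *six7*, which encodes a homeodomain factor needed for green and blue cone opsin expression in zebrafish, with -0.76 (standard error 0.16, adjusted p = 0.0689 from limma). *nrl*, which encodes the factor that drives rod identity, had log2 values of 2.22, 2.17, 1.65 and 1.97 in controls 1 to 4 and 1.65, 1.51, 1.80 and 1.39 in mutants 1 to 4, so the groups overlapped. Its difference was -0.41 (standard error 0.17, adjusted p = 0.387). *nr2e3*, which encodes a nuclear receptor of rods, had 1.89 to 3.23 in controls and 2.70 to 3.45 in mutants, a difference of 0.15 (adjusted p = 0.886). With clutch as a block, 7 of the 17 were lower and 1 was higher, beside 7.86% and 6.48% of all genes, and neither *nrl* (adjusted p = 0.176) nor *nr2e3* (adjusted p = 0.632) was among them.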
